A study of Mus musculus with 12 samples.

Results

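Coenzyme Q synthesis and the enzymes that use coenzyme Q against lipid peroxidation were followed in RNA sequencing of bulk kidney cortex as 10 genes of the 55487 listed in the count table. The members were Aifm2, Dhodh, Pdss1, Pdss2, Coq2, Coq3, Coq5, Coq7, Coq8a and Coq9, chosen by name with earlier results of these data known, and all 10 had enough counts to be tested in every comparison. The 12 mouse kidney cortex libraries fell into 4 groups of 3. Ctrl mice carried floxed alleles of ALR (ALR flox/flox, labelled WT), and PT-KO mice carried the same alleles with Ggt1-Cre (labelled ALR knockdown), a transgene meant to delete ALR in proximal tubule cells. Both genotypes were sampled after Sham surgery (Ctrl, PT-KO) and after ischemia–reperfusion (Ctrl+I/R, PT-KO+I/R), which was 22 min of bilateral clamping followed by 24 h of reperfusion. The mice were 6 to 8 weeks old on a mixed C57BL/6 background, and all 4 groups shared the floxed alleles. The labels do not say that each library came from a separate mouse, so the p-values measure the spread between these samples.

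Coenzyme Q (ubiquinone) is a lipid with a redox-active ring and a long prenyl tail. The tail is assembled from mevalonate-derived units, joined to a ring precursor and then modified by a complex of enzymes on the inner mitochondrial membrane. It carries electrons in the respiratory chain, on which the mitochondria-rich proximal tubule depends. Its reduced form, ubiquinol, also traps lipid radicals and so opposes ferroptosis, the iron-dependent death that follows membrane lipid peroxidation. Aifm2 encodes FSP1, which reduces coenzyme Q at the plasma membrane, and Dhodh encodes dihydroorotate dehydrogenase, a pyrimidine-synthesis enzyme that passes its electrons to mitochondrial ubiquinone. Both act beside GPX4, the glutathione-dependent lipid peroxidase.

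Depth was 12165089 to 23123693 counts per library. Ctrl libraries 1 and 2 held 22402 and 19755 counts of the X-inactivation transcript Xist and 0 counts of 4 Y-linked genes, whereas the other 10 libraries held at most 11 and at least 3109. Those 2 libraries were therefore female by their counts and the rest male, so part of every contrast with Ctrl cannot be told apart from sex. The group of the third Ctrl library comes from its column name, since its number matched no sample title. Gfer, which encodes ALR, was at 12.72, 11.38 and 14.41 CPM (counts scaled to library size) in the Ctrl libraries. In the PT-KO libraries it was at 9.97, 17.12 and 15.03 CPM. These ranges overlapped and the gene was not called lower (log2 fold change 0.13, SE 0.20, adjusted p = 0.761 by edgeR). After I/R it was at 15.32, 20 and 17.58 CPM in Ctrl+I/R and at 21.65, 22.79 and 21.6 CPM in PT-KO+I/R, the highest group. PT-KO+I/R did not overlap Ctrl+I/R (0.32, SE 0.13, adjusted p = 0.0723) and was called higher than PT-KO (0.64, SE 0.18, adjusted p = 0.00888), so the targeted gene went against the label in the injured libraries. Counts over the whole gene in bulk cortex include exons outside the floxed part and cells without Cre, so they do not show whether the deletion took place, and the genotypes below are those of the labels.

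The kidney label was matched by proximal tubule markers. The summed level of 8 such genes was 15600 to 17100 CPM in Ctrl, 16000 to 18300 CPM in PT-KO, 5540 to 10700 CPM in Ctrl+I/R and 4510 to 5220 CPM in PT-KO+I/R, with none at 0. Ctrl+I/R library 2 stood apart from libraries 1 and 4 of its group in tubule markers, with the phosphate transporter Slc34a1 at 809.5 CPM against 2282 and 2854 CPM and the thick ascending limb transporter Slc12a1 at 59.95 CPM against 486.3 and 720.3 CPM. A list of 5 leukocyte markers summed to 32.4 to 34.9 CPM in Ctrl, 26.3 to 33.4 CPM in PT-KO, 94.6 to 173 CPM in Ctrl+I/R and 35.1 to 43.7 CPM in PT-KO+I/R. The 13 mitochondrially encoded mRNAs took 11.42% to 13.21% of counts in Ctrl, 13.12% to 14.19% in PT-KO, 11.66% to 12.84% in Ctrl+I/R and 13.45% to 15.85% in PT-KO+I/R. In bulk tissue, fewer cells of a type and less RNA per cell cannot be told apart.

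The promoters of 8 of the 10 members were found in the RefSeq table (build GRCm38.p6), as 10 start sites. The stretches below were picked by the results of the main fits. Aifm2 was the only member called higher there, Coq8a fell by the most and Coq7 had no called difference. They are given 5′ to 3′ in lower case, and the last base of the Aifm2 and Coq7 stretches lies next to the start site. Capitals mark a CCAAT box, the letters CCAAT, which read ATTGG where the box is on the other strand. The Coq8a stretch stops 55 bases before its start site because those bases are an annotated exon, in which another match lay 7 bases before the start.
Aifm2, chr10:61720399-61720648, plus strand: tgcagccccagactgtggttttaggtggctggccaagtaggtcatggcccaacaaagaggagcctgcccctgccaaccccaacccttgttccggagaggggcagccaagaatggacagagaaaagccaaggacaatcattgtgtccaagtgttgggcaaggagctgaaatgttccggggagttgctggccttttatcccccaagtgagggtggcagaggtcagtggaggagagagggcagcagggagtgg
Coq7, chr7:118533357-118533606, minus strand: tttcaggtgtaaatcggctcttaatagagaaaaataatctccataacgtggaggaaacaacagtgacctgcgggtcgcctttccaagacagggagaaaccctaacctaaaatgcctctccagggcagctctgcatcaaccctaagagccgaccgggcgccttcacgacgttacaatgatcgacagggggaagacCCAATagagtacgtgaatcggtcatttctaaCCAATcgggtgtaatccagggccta
Coq8a, chr1:180196076-180196270, minus strand: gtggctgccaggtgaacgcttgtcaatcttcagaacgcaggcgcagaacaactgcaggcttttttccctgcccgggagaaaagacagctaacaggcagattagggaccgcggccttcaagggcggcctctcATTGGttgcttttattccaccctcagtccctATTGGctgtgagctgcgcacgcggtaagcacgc

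The Aifm2 window held 2 CpG dinucleotides in 250 bases, compared with a median of 6 over all 32851 promoters of that table, of which 18.8% held fewer. The Pdss1, Pdss2, Coq2 and Coq7 windows held 17, 17, 15 and 13 CpG, and the Coq9 window held 34. Coq3 and Coq8a each have a pair of start sites, with 15 and 25 CpG for Coq3 and 14 and 5 for Coq8a. The RefSeq start sites of Aifm2, Coq2 and Coq9 lie inside the span of the gene in the GENCODE annotation, so other starts exist. The same holds for both starts of Coq8a and the downstream start of Coq3. CCAAT occurred in the promoters of Coq7 and Coq8a, a gene without a called difference and the gene that fell most, and in 37.4% of all promoters (300 bases searched, 250 before and 50 after the start, both strands).

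The antioxidant response element core, TGACNNNGC, was found in Coq9 alone among the members and in 12.4% of all promoters. It is shown with 10 bases on each side because the Coq9 start region also holds the oppositely directed gene Ciapin1. Capitals mark the match, which begins 45 bases before the RefSeq start site. In the GENCODE annotation Coq9 starts earlier, at chr8:94838321, so the match lies inside the annotated gene. All 250 bases of the Coq9 window are annotated exon of some gene.
Coq9, chr8:94838358-94838386, plus strand: cactgacgcgTGACGCTGCccggcgcgtc
The YY1 core ATGGCGG began at base 10 after the RefSeq start of Coq9 and occurred in 4.05% of all promoters. No member promoter held the ERR element TCAAGGTCA (0.423%), the cAMP response element TGACGTCA (1.79%) or the E-box CACGTG (7.15%). The NRF1 core GCATGCGC was present in Coq2 (2.71% of promoters). These are letter matches in short windows and say nothing of binding.

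Most members were called between injured and uninjured kidneys labelled PT-KO, 9 of 10, with Aifm2 higher and 8 genes of coenzyme Q synthesis or use lower. Calls are those of edgeR's quasi-likelihood test with an adjusted p under 0.05 (Benjamini-Hochberg, over all genes tested). In that comparison 65.5% of all genes were called, 32.9% higher and 32.7% lower, so a high count was common, but 8 of 10 lower lay above the 32.7% of all genes. In Ctrl kidneys I/R changed 2 members, Coq8a and Coq9, both lower, where 19.4% of all genes were called and 7.97% were lower. That share was not stable when a library was left out. The 3019 genes behind it became 379 or 413 without Ctrl library 1 or 2, and 833 or 1635 without Ctrl+I/R library 1 or 2. The remaining left-out fits are not given here. A fit with fewer libraries is also a weaker test, so the drop was not traced to particular libraries. Between the injured groups, PT-KO+I/R versus Ctrl+I/R, 7 members were called, Aifm2 higher and 6 lower, where 46.9% of all genes were called and 24.4% were lower. Between the Sham groups, PT-KO against Ctrl, 0 of 10 members and 0% of 15291 genes were called.

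The median log2 fold change of the 10 members was -0.60 in PT-KO+I/R against PT-KO, compared with 0.011 over all genes tested. It was -0.48 in PT-KO+I/R versus Ctrl+I/R (all genes -0.005), -0.16 in Ctrl+I/R against Ctrl (all genes -0.011) and 0.04 in PT-KO against Ctrl (all genes -0.012). The groups did not overlap for 9, 6, 3 and 1 of the members in these comparisons, in the same order, and for 70.8%, 58.7%, 43.7% and 21.0% of all genes. The comparisons share libraries, so they are not independent of each other. With 3 libraries against 3, an exact permutation test cannot go below p = 0.1, which is why the tests rest on the fit across all genes.

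**Figure D1:**
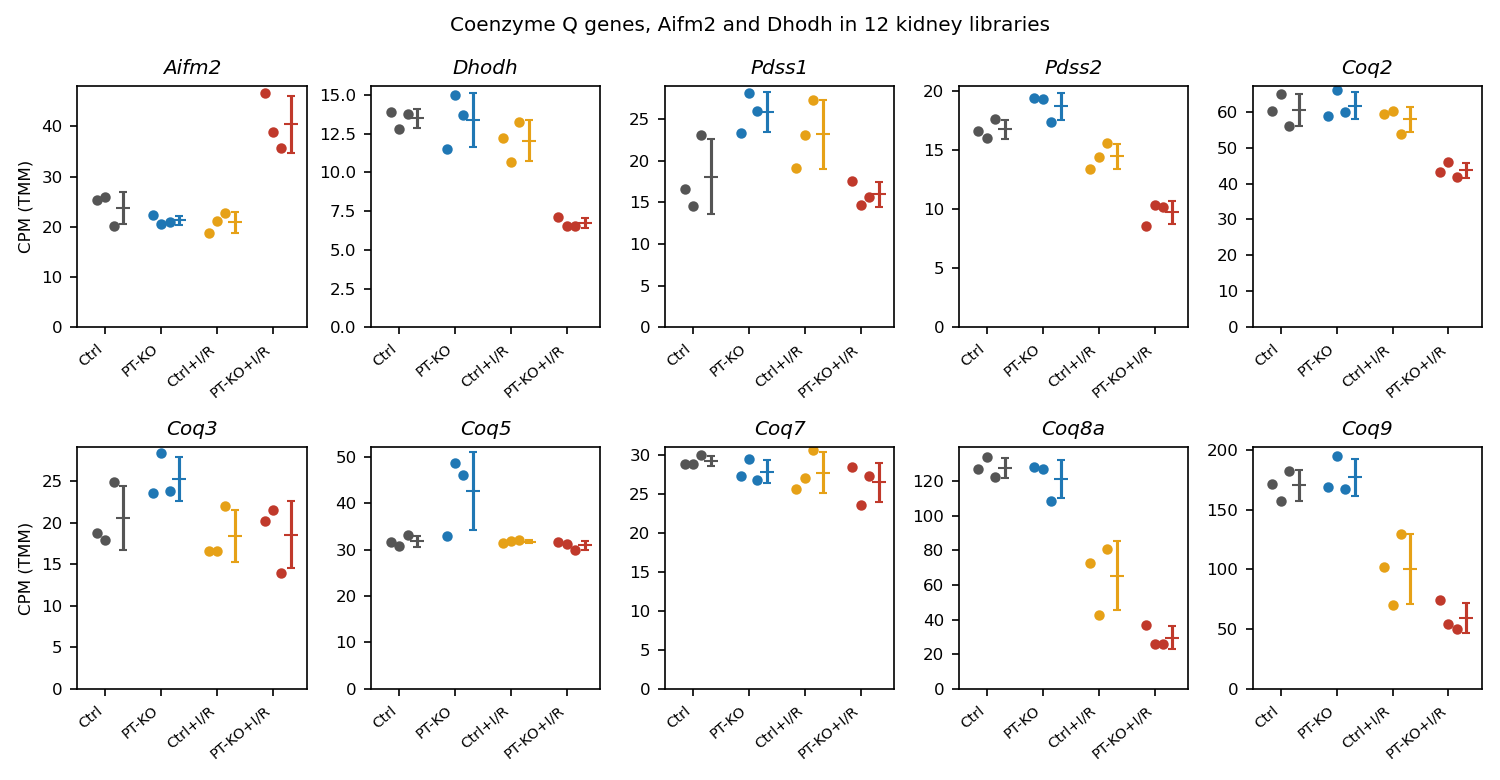
Level of each of the 10 genes in the 12 libraries, in CPM after TMM scaling on a linear axis from 0. Points are libraries, horizontal ticks with bars are the group mean ± SD (n = 3). PT-KO+I/R stands above the other groups for Aifm2 (35.72 to 46.63 CPM) and below them for Dhodh (6.513 to 7.102 CPM), Pdss2, Coq2 and Coq8a.

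Aifm2 (ENSMUSG00000020085, chr10:61715263-61739260, GRCm38, plus strand), the FSP1 gene, was at 25.38, 25.88 and 20.17 CPM in Ctrl libraries 1, 2 and 3. In PT-KO it was at 22.27, 20.57 and 21.04 CPM, in Ctrl+I/R at 18.71, 21.25 and 22.83 CPM, and in PT-KO+I/R at 46.63, 38.82 and 35.72 CPM. Every PT-KO+I/R library was above the highest of the other 9. The level rose 1.88-fold after I/R in the PT-KO label (log2 fold change 0.91, SE 0.12, adjusted p = 7.7e-05) and was 1.92-fold higher in PT-KO+I/R than Ctrl+I/R (0.94, SE 0.13, adjusted p = 0.00131). In Ctrl kidneys the value after I/R was -0.18 (95% interval -0.49 to 0.13, adjusted p = 0.351), with overlapping groups. Of all genes tested, 8.38% had a larger log2 rise than Aifm2 between the injured groups.

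Dhodh (chr8:109591343-109608673, minus strand) was at 13.92, 12.79 and 13.74 CPM in Ctrl, 11.48, 14.97 and 13.68 CPM in PT-KO, and 12.19, 10.65 and 13.28 CPM in Ctrl+I/R. These 9 values overlapped. The 3 PT-KO+I/R libraries were at 7.102, 6.544 and 6.513 CPM, all below the other 9. The level fell 2-fold after I/R in the PT-KO label (log2 fold change -1.0, SE 0.15, adjusted p = 2.4e-04) and was 1.8-fold lower in PT-KO+I/R than Ctrl+I/R (-0.85, SE 0.16, adjusted p = 0.00369). In Ctrl kidneys the value was -0.16 (95% interval -0.47 to 0.16, adjusted p = 0.426). Thus the pair of genes whose products reduce ubiquinone outside and inside mitochondria moved in opposite directions in the same libraries.

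Pdss1 and Pdss2 encode the subunits of the synthase that builds the prenyl tail. Pdss2 (chr10:43221486-43464882, plus strand) was at 16.59, 16.03 and 17.57 CPM in Ctrl, 19.37, 19.33 and 17.36 CPM in PT-KO, 13.40, 14.36 and 15.56 CPM in Ctrl+I/R, and 8.557, 10.37 and 10.19 CPM in PT-KO+I/R. The last group lay below all others. Its level fell 1.92-fold after I/R in the PT-KO label (log2 fold change -0.94, SE 0.13, adjusted p = 1.3e-04) and was 1.49-fold lower in PT-KO+I/R than Ctrl+I/R (-0.57, SE 0.15, adjusted p = 0.0138). Ctrl+I/R lay below Ctrl without overlap, but the difference was not called (-0.21, 95% interval -0.47 to 0.06, adjusted p = 0.222).

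Pdss1 (chr2:22895522-22940266, plus strand) varied more. The female Ctrl libraries 1 and 2 were at 16.64 and 14.50 CPM and the male Ctrl library at 23.11 CPM. PT-KO was at 23.28, 28.11 and 26.01 CPM, Ctrl+I/R at 19.07, 23.13 and 27.32 CPM, and PT-KO+I/R at 17.54, 14.69 and 15.60 CPM. The injured PT-KO label was thus as low as the female Ctrl libraries and below the other 7. The level fell 1.63-fold after I/R in the PT-KO label (log2 fold change -0.71, SE 0.12, adjusted p = 5.1e-04) and was 1.46-fold lower in PT-KO+I/R than Ctrl+I/R (-0.55, SE 0.16, adjusted p = 0.0231). The second call was lost without Ctrl+I/R library 4, PT-KO+I/R library 3 or PT-KO+I/R library 4 (adjusted p = 0.0626, 0.0867 and 0.0768). Between the Sham groups Pdss1 was at 0.51 (SE 0.17, adjusted p = 0.231), and without the male Ctrl library the value was 0.73 (adjusted p = 0.00727), a contrast of female with male libraries.

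Coq2 (chr5:100654723-100675140, minus strand) encodes the transferase that joins the tail to the ring. It was at 60.22, 64.92 and 55.98 CPM in Ctrl, 58.87, 65.91 and 60.00 CPM in PT-KO, 59.44, 60.21 and 53.89 CPM in Ctrl+I/R, and 43.30, 46.03 and 41.91 CPM in PT-KO+I/R. Only the last group stood apart. Its level fell 1.41-fold after I/R in the PT-KO label (log2 fold change -0.50, SE 0.08, adjusted p = 4.8e-04) and was 1.33-fold lower in PT-KO+I/R than Ctrl+I/R (-0.41, SE 0.09, adjusted p = 0.00915).

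Coq3, Coq5 and Coq7 encode enzymes that methylate or hydroxylate the ring, and between the injured groups they had the smallest log2 fold changes of the 10. Coq7 (chr7:118509659-118533356, minus strand), the hydroxylase, ran from 23.64 to 30.61 CPM over all 12 libraries and was called in no comparison. Its log2 fold change was -0.08 in PT-KO+I/R against PT-KO (95% interval -0.32 to 0.16) and -0.08 in PT-KO+I/R versus Ctrl+I/R (-0.36 to 0.21). The 95% interval therefore reached a fall of 0.36 on the log2 scale at most in these contrasts. Coq5 (chr5:115279666-115296972, plus strand), a C-methyltransferase, was at 30.78 to 33.09 CPM in Ctrl, 31.40 to 32.07 CPM in Ctrl+I/R and 29.92 to 31.75 CPM in PT-KO+I/R. In PT-KO it was at 33.06, 48.73 and 46.08 CPM, so libraries 2 and 4 stood above every other library. Its fall in PT-KO+I/R against PT-KO (log2 fold change -0.47, SE 0.14, adjusted p = 0.0119) was measured from those libraries and was lost without library 2 or library 4 (adjusted p = 0.056 and 0.0518). Between the injured groups Coq5 was at -0.04 (95% interval -0.25 to 0.17).

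Coq3 (chr4:21879673-21912162, plus strand), an O-methyltransferase, was at 18.75, 17.93 and 24.94 CPM in Ctrl, again with the male library highest. In PT-KO it was at 23.60, 28.32 and 23.81 CPM, in Ctrl+I/R at 16.57, 16.55 and 22.01 CPM, and in PT-KO+I/R at 20.19, 21.46 and 13.93 CPM. Of the 4 comparisons, only that of PT-KO+I/R with PT-KO had groups that did not overlap. The fall there (log2 fold change -0.45, SE 0.16, adjusted p = 0.0318) was lost without PT-KO library 2, PT-KO library 4 or PT-KO+I/R library 4 (adjusted p = 0.116, 0.0514 and 0.0961). Between the injured groups the value was 0.01 (95% interval -0.45 to 0.46).

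Coq8a and Coq9 encode accessory proteins, an atypical kinase-like ATPase and a lipid-binding partner of COQ7. They had the largest falls of the 10 after I/R. Coq8a (chr1:180165238-180199602, minus strand) was at 126.9, 133.9 and 122.5 CPM in Ctrl, 128.0, 126.9 and 108.3 CPM in PT-KO, 72.62, 42.82 and 80.64 CPM in Ctrl+I/R, and 37.05, 25.64 and 26.05 CPM in PT-KO+I/R. The Sham groups overlapped, Ctrl+I/R lay below both, and PT-KO+I/R lay below all. Its level fell 1.94-fold after I/R in Ctrl kidneys (log2 fold change -0.96, SE 0.22, adjusted p = 0.029) and 4.14-fold in the PT-KO label (-2.05, SE 0.14, adjusted p = 1.2e-06). Between the injured groups it was 2.23-fold lower in PT-KO+I/R (-1.16, SE 0.25, adjusted p = 0.0075). In the contrast of PT-KO+I/R with PT-KO, 6.92% of all genes had a larger fall.

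Coq9 (chr8:94838321-94854895, plus strand) was at 171.2, 157.4 and 182.7 CPM in Ctrl, 169.0, 194.8 and 167.4 CPM in PT-KO, 101.7, 70.44 and 129.5 CPM in Ctrl+I/R, and 74.02, 54.09 and 50.30 CPM in PT-KO+I/R. The injured groups overlapped, because Ctrl+I/R library 2 was below PT-KO+I/R library 2. That library was the lowest of its group for both Coq8a and Coq9 and for all 8 proximal tubule markers, and without it the values between the injured groups were -1.40 for Coq8a (adjusted p = 5.2e-04) and -0.98 for Coq9 (adjusted p = 0.00319). The level fell 1.69-fold after I/R in Ctrl kidneys (log2 fold change -0.75, SE 0.21, adjusted p = 0.0476) and 3-fold in the PT-KO label (-1.59, SE 0.14, adjusted p = 5.9e-06). Between the injured groups it was 1.7-fold lower in PT-KO+I/R (-0.77, SE 0.24, adjusted p = 0.0289), a call lost without Ctrl+I/R library 1 or 4 or PT-KO+I/R library 3 or 4 (adjusted p = 0.0678 to 0.111).

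The calls in Ctrl+I/R against Ctrl were not kept in every fit with 1 library left out. Coq8a was no longer called without Ctrl library 1, 2 or 3 or without Ctrl+I/R library 1 (adjusted p = 0.0909, 0.0983, 0.0538 and 0.0705). Coq9 was no longer called without any of the Ctrl libraries or without Ctrl+I/R library 1 or 2 (adjusted p = 0.128, 0.113, 0.0981, 0.12 and 0.0579). With sex as a term in a fit of all 12 libraries, the values were -0.91 for Coq8a (adjusted p = 0.0525) and -0.86 for Coq9 (adjusted p = 0.0547). The only female libraries were in Ctrl, so in the fit with sex the Ctrl level rests on its male library alone. The direction was downward in all of these fits. Log2 fold changes were -1.14 to -0.72 for Coq8a and -0.98 to -0.54 for Coq9 over the fits with 1 library left out. Calls over all genes dropped in the same fits that lost these calls, from 3019 to between 379 and 2227.

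Markers of several cell types moved in the same comparisons. All 8 proximal tubule markers fell in PT-KO+I/R against PT-KO (median log2 fold change -2.52), 5 of 8 fell in PT-KO+I/R versus Ctrl+I/R (median -1.30), and 3 of 8 fell in Ctrl+I/R against Ctrl (median -0.94). Of 5 leukocyte markers, all rose in Ctrl+I/R against Ctrl (median 2.31), and between the injured groups 3 fell and 1 rose (median -2.32). After I/R in the PT-KO label 3 leukocyte markers fell and 2 rose (median -1.16). In that comparison the thick ascending limb list (3 of 3 lower, median -3.44) and the distal convoluted tubule list (2 of 2 lower, median -3.09) had lower medians than the proximal tubule list. The collecting duct list (3 of 3 lower, median -1.53), the intercalated cell list (2 of 3 lower, median -0.34), the podocyte list (1 of 3 lower, median -0.12) and the erythroid list (1 of 3 lower, median -0.80) had called genes only below 0, and the endothelium list (2 of 3 higher, median 0.41) and the fibroblast list (2 of 3 higher, median 0.73) only above 0. In PT-KO+I/R versus Ctrl+I/R the calls were 2 of 3 lower for fibroblast (median -2.14), 2 of 3 lower for thick ascending limb (median -2.38), 3 of 3 lower for erythroid (median -1.60), 1 of 2 lower for distal convoluted tubule (median -0.27), 1 of 3 lower for podocyte (median 0.06) and 2 of 3 higher for endothelium markers (median 0.44). In Ctrl+I/R against Ctrl 3 of 3 fibroblast markers rose (median 2.22), and 2 of 2 distal convoluted tubule (median -2.66), 3 of 3 intercalated cell (median -0.86), 3 of 3 podocyte (median -0.85), 1 of 3 collecting duct (median -0.82) and 1 of 3 endothelium markers (median 0.00) fell. The part of these markers in the results for the 10 genes was not tested.

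**Figure D2:**
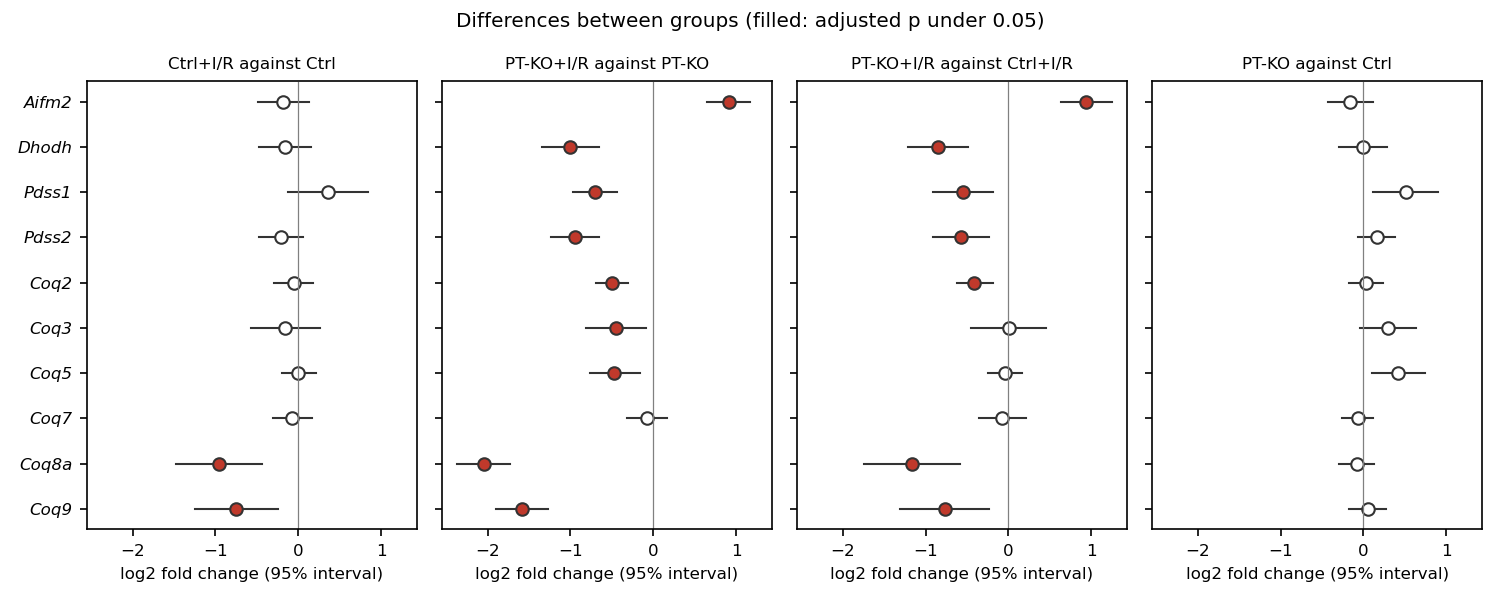
Log2 fold change with its 95% interval for each of the 10 genes (rows) in 4 comparisons (panels), filled where the adjusted p was under 0.05. In PT-KO+I/R against PT-KO, 9 of 10 are filled and only Aifm2 (0.91) is to the right of 0, and in PT-KO against Ctrl none is filled.

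Whether the response to I/R differed between genotype labels was tested as an interaction over all 12 libraries. It was called for 7 members, where 30.6% of all genes were called, 14.3% with a positive and 16.4% with a negative term. Aifm2 had a positive term (log2 1.11, SE 0.18, adjusted p = 0.00108), and the terms of the other 6 were negative. These were Coq8a (-1.07, SE 0.29, adjusted p = 0.0155), Pdss1 (-1.05, SE 0.25, adjusted p = 0.00807), Dhodh (-0.83, SE 0.19, adjusted p = 0.00646), Coq9 (-0.81, SE 0.28, adjusted p = 0.0426), Pdss2 (-0.73, SE 0.16, adjusted p = 0.00565) and Coq2 (-0.43, SE 0.12, adjusted p = 0.0204). The terms of Coq3 (-0.28, adjusted p = 0.435), Coq5 (-0.46, adjusted p = 0.0614) and Coq7 (0.00, 95% interval -0.30 to 0.30) were not called. Only Ctrl held female libraries, so a fit with sex takes the Ctrl level from its male library alone. The interaction uses the mixed-sex Ctrl group, and with sex as a term Pdss1 moved to -0.70 (adjusted p = 0.0658) and Coq9 to -0.71 (adjusted p = 0.166).

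The Coq9 interaction was kept without Ctrl library 3, Ctrl+I/R library 2 or PT-KO+I/R library 2 and was lost without any of the other 9 libraries (adjusted p = 0.0645 to 0.107). The Coq2 interaction was lost without PT-KO library 2 or PT-KO+I/R library 4 (adjusted p = 0.0516 and 0.0548). The Coq5 term became called without PT-KO library 1 (-0.61, adjusted p = 0.00417).

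**Figure D3:**
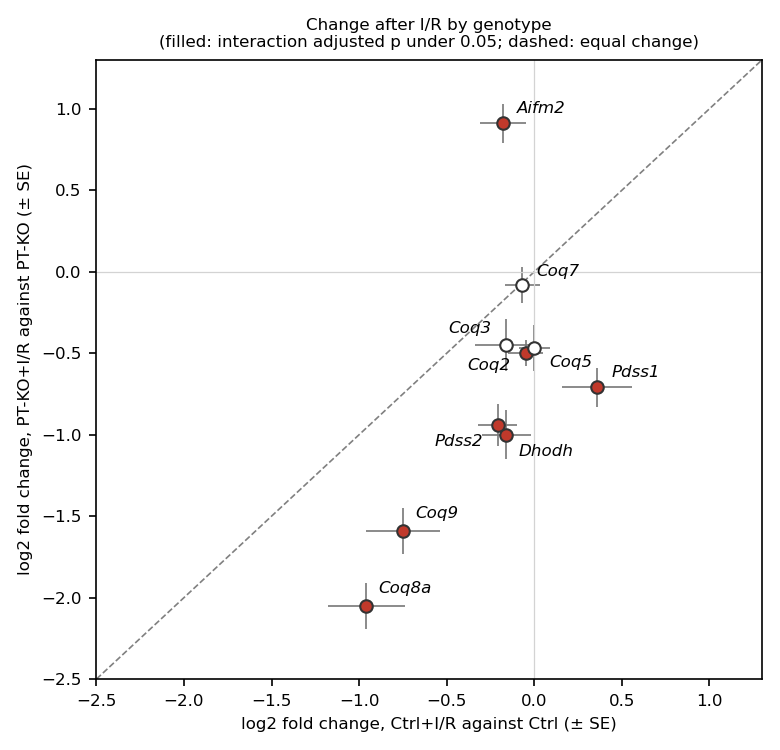
Log2 fold change after I/R in Ctrl (horizontal) against that in the PT-KO label (vertical), both ± SE, for the 10 genes. The dashed line marks equal change and filled points have a called interaction. Aifm2 lies above the line (-0.18 and 0.91), Coq7 lies on it, and Coq8a (-0.96 and -2.05) is farthest down.

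Levels can be compared between genes only per length, so CPM was divided by the kilobases of merged exon of each gene. In Ctrl the order in CPM per kb was Coq9 (55.8 ± 4.15, SD, n = 3), Coq8a (24.1 ± 1.09), Coq2 (23 ± 1.7), Coq5 (10.5 ± 0.383), Coq3 (6.85 ± 1.28), Aifm2 (5.78 ± 0.767), Coq7 (4.54 ± 0.103), Pdss1 (4.26 ± 1.06), Pdss2 (2.81 ± 0.131) and Dhodh (2.13 ± 0.0965). The mean ± SD ranges of Coq8a and Coq2, Coq3 and Aifm2, Aifm2 and Pdss1, and Coq7 and Pdss1 overlapped. In PT-KO+I/R the order was Coq9 (19.5 ± 4.17), Coq2 (16.7 ± 0.798), Coq5 (10.2 ± 0.309), Aifm2 (9.8 ± 1.36), Coq3 (6.18 ± 1.35), Coq8a (5.59 ± 1.22), Coq7 (4.11 ± 0.393), Pdss1 (3.75 ± 0.343), Pdss2 (1.63 ± 0.168) and Dhodh (1.06 ± 0.0524). Coq8a thus went from the second place to the sixth and Aifm2 from the sixth to the fourth, although Coq9 and Coq2, Coq5 and Aifm2, Coq3 and Coq8a, Coq8a and Coq7, and Coq7 and Pdss1 did not differ beyond their spread there.

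The sum of the 10 levels was 137 to 144 CPM per kb in Ctrl, 141 to 160 in PT-KO, 89 to 118 in Ctrl+I/R and 71.2 to 87.4 in PT-KO+I/R. Coq8a and Coq9 together made up 56.2% to 57.8% of it in Ctrl, 53.1% to 56.4% in PT-KO, 35% to 49% in Ctrl+I/R and 29.3% to 35.7% in PT-KO+I/R. Aifm2 made up 3.41% to 4.6%, 3.12% to 3.84%, 4.42% to 5.8% and 12.2% to 13% in the same order. The ratio of Aifm2 to Coq9, per length, was 0.0818 to 0.122 in Ctrl, 0.0783 to 0.0977 in PT-KO, 0.131 to 0.224 in Ctrl+I/R and 0.467 to 0.532 in PT-KO+I/R. The lowest PT-KO+I/R library was thus above the highest Ctrl+I/R library.

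**Figure D4:**
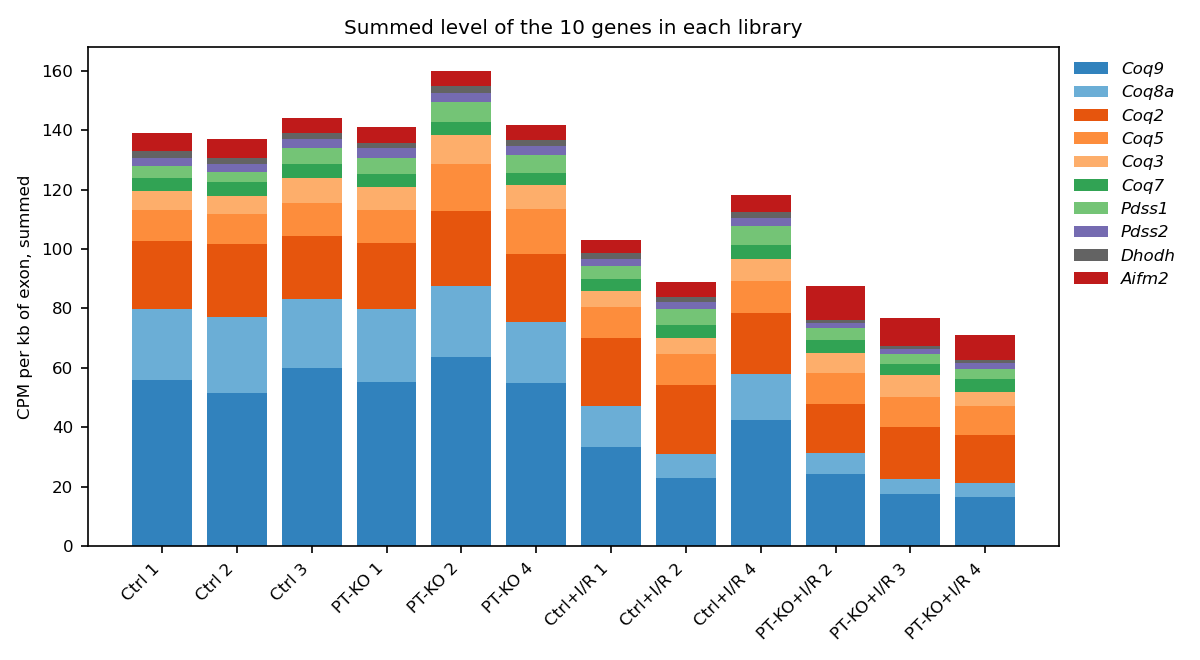
Level of the 10 genes in each library, as CPM per kb of exon, stacked so that the bar height is their sum. The blue segments (Coq9 and Coq8a) shrink in the I/R groups, and the red segment (Aifm2) takes 12.2% to 13% of the bar in PT-KO+I/R.

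The lists of related genes that follow were also chosen with earlier results of these data known. Of 9 other genes of coenzyme Q synthesis and handling that were tested, 9 were called in PT-KO+I/R against PT-KO, 6 lower and 3 higher (median log2 fold change -0.35), where 65.5% of all genes were called. The largest were Hpdl, a dioxygenase-like enzyme of ring-precursor synthesis (1.66, SE 0.26, adjusted p = 3.4e-04), Fdxr, ferredoxin reductase (-1.05, SE 0.19, adjusted p = 6.6e-04), and Coq4, a ring-decarboxylating component of the complex (-0.74, SE 0.14, adjusted p = 0.00104). Between the injured groups, 5 of 9 were called, near the 46.9% of all genes, with Hpdl (1.06, adjusted p = 0.0204) and the protease Parl (0.40, adjusted p = 0.017) higher, and Fdxr (-0.94, adjusted p = 0.00381), Coq4 (-0.67, adjusted p = 0.00833) and the hydroxylase Coq6 (-0.45, adjusted p = 0.0265) lower. Hpdl was low throughout, with 0.838 CPM on average in Ctrl and 3.56 CPM in PT-KO+I/R. In Ctrl+I/R against Ctrl 1 of 9 was called (19.4% of all genes), Coq10a, a coenzyme Q-binding protein (-0.49, SE 0.14, adjusted p = 0.0462), and in PT-KO against Ctrl 0 of 9. For the interaction 1 of 9 was called, below the 30.6% of all genes, Coq4 (-0.82, SE 0.18, adjusted p = 0.00619).

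Of the 8 mevalonate and isoprenoid genes that supply the prenyl tail, 5 fell after I/R in the PT-KO label and 3 were not called (median -1.11). The share called did not exceed the 65.5% of all genes, while 32.7% of all genes were lower. The falls were led by the synthase Hmgcs1 (-2.28, SE 0.13, adjusted p = 4.1e-07), the isomerase Idi1 (-2.26, SE 0.17, adjusted p = 2.0e-06) and the decarboxylase Mvd (-2.12, SE 0.18, adjusted p = 5.4e-06). Compared with Ctrl+I/R, 4 of 8 were lower (median -1.12; 24.4% of all genes were lower), with the largest values in Mvd (-1.81, SE 0.32, adjusted p = 0.00303), Idi1 (-1.77, SE 0.26, adjusted p = 0.00142) and the kinase Mvk (-1.66, SE 0.24, adjusted p = 0.00134). In Ctrl+I/R against Ctrl 0 of 7 were called by edgeR and 0 had an unadjusted p under 0.05, and Hmgcs1 was at -0.20 (SE 0.31, adjusted p = 0.665). Of the 3 that were not called, Fdps, the farnesyl diphosphate synthase gene, was at 1.27 in PT-KO+I/R against PT-KO (SE 0.53, adjusted p = 0.0583), a low gene whose groups did not overlap (0.573 CPM on average in PT-KO and 1.37 CPM in PT-KO+I/R). The kinase gene Pmvk was at 0.02 (adjusted p = 0.903). Ggps1, which makes the geranylgeranyl precursor, was at -0.08 in PT-KO+I/R against PT-KO (adjusted p = 0.446) and at 0.03 between the injured groups (adjusted p = 0.79).

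Other enzymes that reduce ubiquinone split in direction. In Ctrl+I/R against Ctrl 5 of 9 were called (median -0.43), where 19.4% of all genes were called. Nqo1, the cytosolic quinone reductase, rose (1.01, SE 0.20, adjusted p = 0.0192), and Prodh, proline dehydrogenase (-0.99, SE 0.17, adjusted p = 0.014), Sdhb, Sdha and Sqor fell. In PT-KO+I/R against PT-KO 8 of 9 were called (median -0.55), 3 higher and 5 lower (65.5% of all genes, 32.9% higher and 32.7% lower), with Nqo1 at 1.95 (SE 0.15, adjusted p = 2.1e-06), Prodh at -1.34 (SE 0.17, adjusted p = 7.9e-05) and the succinate dehydrogenase subunit Sdha at -1.05 (SE 0.09, adjusted p = 3.8e-06). Relative to injured Ctrl kidneys, 4 of 9 were called, near the 46.9% of all genes, and those 4 were higher in the PT-KO label, as were 22.5% of all genes. These were Nqo1 (1.37, adjusted p = 5.2e-04), Etfdh, which passes electrons from fatty acid oxidation to ubiquinone (0.87, adjusted p = 0.00363), the sulfide oxidase Sqor (0.79, adjusted p = 0.0034) and the glycerol phosphate dehydrogenase Gpd2 (0.67, adjusted p = 0.00555). The median of the list was -0.19.

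The remaining arms of ferroptosis defence are tetrahydrobiopterin (BH4) and glutathione with GPX4. Of 4 BH4 genes, 4 were called in PT-KO+I/R against PT-KO (median -0.83), where 65.5% of all genes were called, with Gch1, the entry enzyme of BH4 synthesis, higher (4.04, SE 0.22, adjusted p = 3.0e-07) and the recycling enzyme Qdpr (-1.77, SE 0.12, adjusted p = 1.0e-06) and the synthesis enzyme Pts (-1.15, SE 0.08, adjusted p = 1.8e-06) among the 3 that were lower. For the injured groups, where 46.9% of all genes were called, 3 of 4 were called (median -0.62), Gch1 again higher (2.00, SE 0.30, adjusted p = 0.00168) and Qdpr (-1.05, SE 0.24, adjusted p = 0.00871) and Pts (-0.94, SE 0.12, adjusted p = 8.1e-04) lower. Of 6 genes of the GPX4 arm, 5 were called in PT-KO+I/R against PT-KO, 4 higher and 1 lower (median 0.54), and 2 between the injured groups, a share below the 46.9% of all genes. These 2 were the cystine transporter Slc7a11 (3.17, SE 0.63, adjusted p = 0.00508), with 3.936, 21.9 and 12.77 CPM in PT-KO+I/R and 1.34, 2.245 and 0.6957 CPM in Ctrl+I/R, and glutathione reductase Gsr (1.60, SE 0.16, adjusted p = 3.5e-04). Gpx4 itself was at -0.30 between the injured groups (SE 0.13, adjusted p = 0.0921).

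In Ctrl+I/R against Ctrl 0 of 4 BH4 genes were called by edgeR (3 with an unadjusted p under 0.05), and of the GPX4 arm 1 of 6, near the 19.4% of all genes, Gsr (0.53, SE 0.13, adjusted p = 0.0322). In PT-KO against Ctrl 0 of the 34 genes of these lists that were tested were called by edgeR (5 with an unadjusted p under 0.05), where 2573 genes overall had an unadjusted p under 0.05 and DESeq2 called 458. Among the 10 members, 2 had an unadjusted p under 0.05 there, Pdss1 and Coq5, and DESeq2 called 0.

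**Figure D5:**
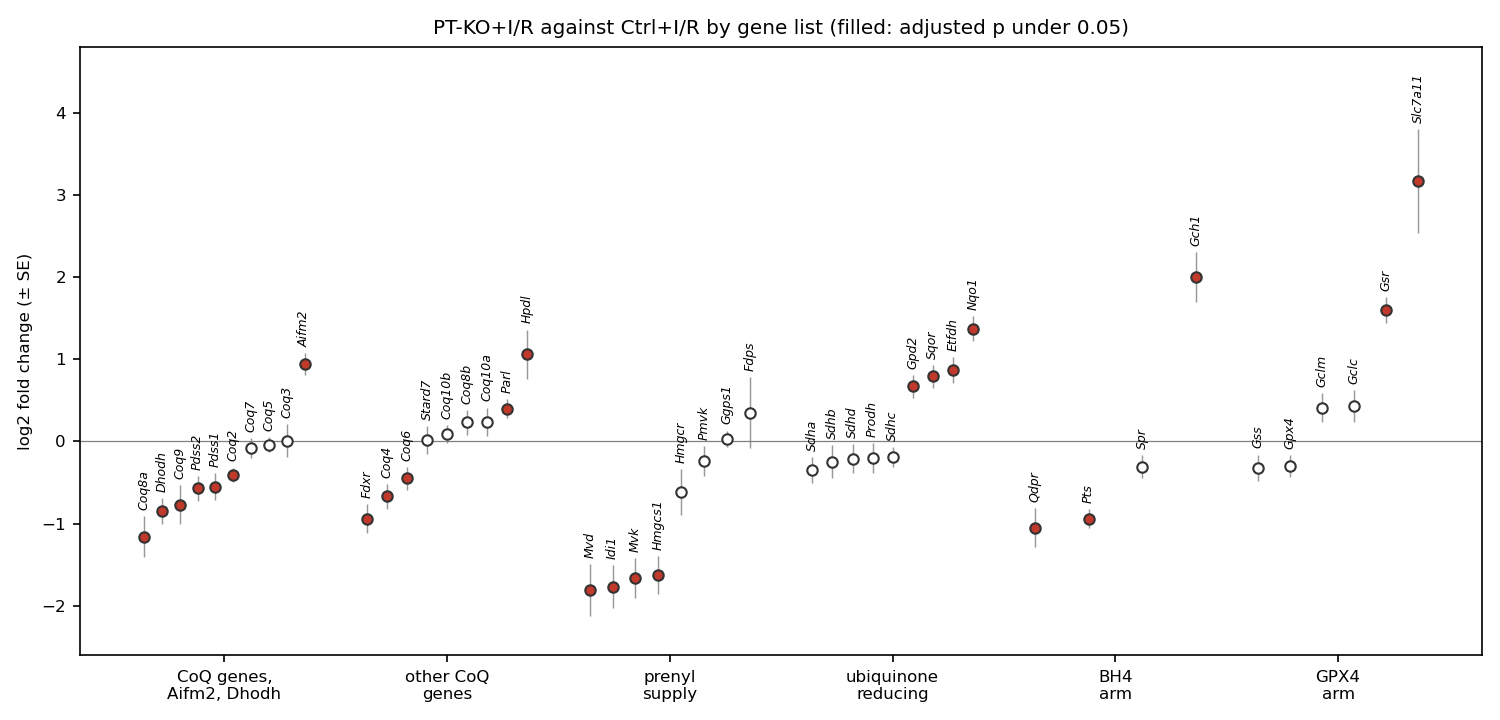
Log2 fold change ± SE in PT-KO+I/R versus Ctrl+I/R for the 10 genes and for 5 lists of related genes, each list ordered by value, filled where the adjusted p was under 0.05. Aifm2 (0.94) is the only filled gene above 0 among the 10, whereas the prenyl supply list has filled points only below 0 and the ubiquinone-reducing list only above 0.

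The genes whose pattern was most like that of Aifm2, by Pearson r of log2 CPM over the 12 libraries among 16167 genes, were Ddhd2 (r = 0.976), Glud1 (0.972), Kctd6 (0.964), Plpp1 (0.961) and Abhd4 (0.961). Those most like Dhodh were Acp2 (0.987), Ube2u (0.986), Hax1 (0.985), Wnt5b (0.982) and Prok1 (0.981). Glud1, glutamate dehydrogenase, averaged 529, 528, 481 and 1040 CPM in Ctrl, PT-KO, Ctrl+I/R and PT-KO+I/R. Prok1, a secreted peptide gene, averaged 18.4, 28.9, 14 and 0.217 CPM, a much steeper fall than that of Dhodh. The 12 points share the group differences, so these r values are descriptions of the 4 groups. Among the members, Coq8a and Coq9 were most alike (r = 0.99), and Aifm2 had a negative r with each of the other 9 (-0.26 to -0.87).

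Some members share bases with a neighbour on the other strand, and reads there cannot be assigned because the strand setting of the counting was not given in the sources used here. Exons of Aifm2 overlap H2afy2 by 233 bases, and H2afy2 held only 110 to 299 counts per library and was at -0.04 between the injured groups (adjusted p = 0.907). Exons of Pdss1 overlap Abi1 by 194 bases, and Abi1 (1035 to 2308 counts) was called between the injured groups with the opposite sign to Pdss1 (0.52, adjusted p = 0.00488). Exons of Coq8a overlap Cdc42bpa by 366 bases, with 948 to 2134 counts and a value of 0.22 between the injured groups (adjusted p = 0.122). Exons of Coq9 overlap Ciapin1 by 38 bases, with 495 to 1138 counts and a value of 0.10 (adjusted p = 0.644).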

How the data were processed

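The deposited values were whole-number read counts per gene made by the authors from 12 kidney cortex libraries (HISAT2 2.0.4 and mm10 per the submitters' processing notes; the counting tool and strand setting were not given in the sources used here). The table held 55487 gene identifiers, of which 29160 had a count, and 0 columns of other samples. The 10 members and the gene lists were chosen with earlier results of these data known. Counts were filtered with filterByExpr, scaled by TMM and tested with edgeR 4.0.16 (R 4.3.3) by the quasi-likelihood F test with Benjamini-Hochberg adjustment, on the 6 libraries of each comparison and on all 12 for the interaction, with calls at an adjusted p under 0.05. Printed CPM use TMM over all 12 libraries. Alternatives were DESeq2 1.42.0, total-count scaling, no filter, at least 10 counts in every library, a replicate block, a fit of all 12 libraries with and without sex, and each library left out. Because only Ctrl held female libraries, the fits with sex take the Ctrl level from its male library alone. The main fit of each comparison was also run on simulated data, and the alternatives were not. Of 100 genes set at a 2-fold change, 38 were found in Ctrl+I/R against Ctrl and 34 for the interaction. In PT-KO+I/R against PT-KO 71 were found, between the injured groups 61 and between the Sham groups 62. False calls numbered 14, 9, 21, 7 and 13 in that order. A change of that size was thus found least often for I/R in Ctrl and the interaction. Total counts ranged from 12165089 to 23123693 and limit the precision of low genes.

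Named genes were the 10 members, up to 3 called genes with the largest log2 fold change per list and comparison, the 5 genes most correlated with Aifm2 and with Dhodh, and Gfer. Others (Gpx4, Ggps1, Fdps, Pmvk, Coq6, Parl, Gpd2, overlapping neighbours) were named after their values were seen. Choldh and Fdx2 were not analysed here, and the BH4 list of 4 genes leaves out 1 gene that is not reported here. Coordinates are from GENCODE M21 (GRCm38, the same assembly as mm10) and promoters from RefSeq. Same-numbered libraries were checked for pairing and did not deviate together.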

Additional observations from a re-analysis of the deposited data

Results flagged for a closer look

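The response to I/R differed between the genotype labels in the interaction test of edgeR for 7 of the 10 members. The terms, on the log2 scale, were 1.11 for Aifm2, -0.83 for Dhodh, -1.05 for Pdss1, -0.73 for Pdss2, -0.43 for Coq2, -1.07 for Coq8a and -0.81 for Coq9. Of the other coenzyme Q genes it differed for Coq4 (-0.82), and of the prenyl supply genes for Hmgcs1 (-2.07), Mvk (-1.49), Mvd (-1.83) and Idi1 (-2.27). Of the other ubiquinone-reducing enzymes it differed for Etfdh (0.61), Sqor (0.92) and Nqo1 (0.95). Of the BH4 genes it differed for Gch1 (3.01), Pts (-0.84) and Qdpr (-0.97), and of the GPX4 arm for Slc7a11 (3.41) and Gsr (1.15). The Ctrl group of this test holds 2 female libraries and 1 male library, and 30.6% of all genes were called. No test for a library that stands apart was run within these groups of 3.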

How the results depend on the processing

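Of 340 values of members under alternatives that kept all libraries, 307 kept their direction and their side of the threshold, 18 lost a call, 3 gained one and 12 changed sign. None of the values that changed sign was called in the first place.

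The count of members called in Ctrl+I/R against Ctrl was 1 with total counts and 0 with sex as a term, and 0 to 2 with 1 library left out. In PT-KO+I/R against PT-KO it was 7 to 9 with 1 library left out, in PT-KO+I/R versus Ctrl+I/R 5 to 7, in PT-KO against Ctrl 0 to 2 and for the interaction 5 to 7. The 2 calls in PT-KO against Ctrl came without Ctrl library 3, Pdss1 (0.73) and Coq3 (0.46). Same-numbered libraries did not deviate together (median correlation -0.022 over 12 pairs, -0.188 to 0.184, 1 pair over 0.1). No pairing was thus seen by this measure, and the labels do not say what the numbers mean. With the replicate number as a block, 0 members were called in PT-KO+I/R versus Ctrl+I/R, where 1683 genes were called and Aifm2 was at 0.89 (adjusted p = 0.0574). The block gave 1 call in PT-KO against Ctrl (Pdss1, 0.71), 3 for the interaction, 2 in Ctrl+I/R against Ctrl and 9 in PT-KO+I/R against PT-KO. A library whose number occurs in only 1 group adds nothing to such a contrast. PT-KO+I/R was thus compared through libraries 2 and 4 alone, which leaves little to estimate the spread. Both contrasts with Ctrl rest on libraries 1 and 2, which are female in Ctrl and male in PT-KO and Ctrl+I/R. The interaction drew on the same Ctrl libraries. Block results that involve Ctrl therefore cannot be told apart from sex.

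Signs changed as follows. In Ctrl+I/R against Ctrl, Aifm2 was at 0.05 and Coq2 at 0.05 with sex as a term, Coq2 at 0.06 and Coq7 at 0.05 with total counts, Coq2 at 0.01 without Ctrl library 2, and Coq3 at 0.02 without Ctrl library 3 (-0.31 to 0.02 over all left-out libraries). In PT-KO+I/R versus Ctrl+I/R, Coq3 was at -0.19 with total counts, -0.02 with at least 10 counts, -0.19 with the replicate block, and -0.07, -0.07, -0.04 and -0.11 without Ctrl+I/R library 1, Ctrl+I/R library 2, PT-KO+I/R library 2 or PT-KO+I/R library 3 (up to 0.18 over all left-out libraries). Coq7 was at 0.01 without PT-KO+I/R library 3 (down to -0.14 over the others). In PT-KO against Ctrl, Aifm2 was at 0.08 and Coq9 at -0.05 with sex as a term. There Coq2 was at -0.10 and Coq9 at -0.07 with total counts, Coq2 at -0.01 with the block, Dhodh at 0.01 without Ctrl library 1 and 0.09 without PT-KO library 1, Coq2 at -0.02 without Ctrl library 3 and -0.02 without PT-KO library 2, and Coq9 at -0.01 without PT-KO library 2 (up to 0.11 over the others). The values with sex as a term take the Ctrl level from its male library alone. The cause of the sign changes was not tested.

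Total counts moved the median of all genes by 0.12, 0.04, -0.21, -0.12 and -0.09 (log2) for I/R in Ctrl, I/R in the PT-KO label, the injured groups, the Sham groups and the interaction. Genes called higher and lower went from 1778 and 1241 to 2346 and 766 in the comparison of Ctrl+I/R with Ctrl. They went from 3444 and 3725 to 1978 and 5080 in PT-KO+I/R versus Ctrl+I/R, and from 2305 and 2648 to 1591 and 2997 for the interaction. In PT-KO against Ctrl the block, which there set female Ctrl libraries against male ones, called 1378 genes, no filter 388 and DESeq2 458, against 0. With sex as a term 2029 genes were called in Ctrl+I/R against Ctrl, against 3019, and 3233 for the interaction, against 4953.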
